A study of Arabidopsis thaliana with 6 samples.

Results

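Plants store and move nitrogen as the amides asparagine and glutamine, and 10 genes that make or break down these amino acids are described here in young inflorescences of Arabidopsis thaliana. They were chosen by gene identifier as the asparagine synthetases ASN1 to ASN3, the glutamate dehydrogenases GDH1 and GDH2, the glutamine synthetases GLN1;1 to GLN1;3 and GLN2, and the ferredoxin-dependent glutamate synthase GLU1. All 10 are among the 17675 genes of the deposited table. RNA-seq was made of 6 libraries, 3 from inflorescences given 10 µM dexamethasone (DEX) in DMSO and 3 from a DMSO group. The labels give 0.015% of the wetting agent Silwet L-77 for every library of both groups. The groups are those of the library titles, since the treatment text is the same for every library and names DEX, and the labels give neither a treatment duration nor a harvest time. Every plant was 3 weeks old and had the genotype ARF3:ARF3-GR arf3-29, in which the auxin response factor ARF3, driven by its own promoter, is fused to the steroid-binding domain GR that keeps it inactive until DEX is given. Plants grew at 23 °C in 16 h of light and 8 h of dark, and flowers older than stage 6 were dissected away. No library without ARF3-GR was analysed here, so an effect of DEX itself and an effect of active ARF3 cannot be told apart.

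Glutamine synthetase joins ammonium to glutamate, and glutamate synthase passes the amide nitrogen on to make new glutamate. Asparagine synthetase moves the amide nitrogen of glutamine to aspartate, giving asparagine, which carries more nitrogen per carbon. Glutamate dehydrogenase works in mitochondria and, in plants, is best known for breaking glutamate down to ammonium and a carbon skeleton for respiration. ASN1, also called DIN6, is known in Arabidopsis as a gene induced by darkness and repressed by sugar and light, whereas ASN2 is known to be induced by light.

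Levels are in reads per 1000000 reads (RPM), with recovered totals of 10703769 to 14469527 reads per DEX library and 12437315 to 13645763 reads per DMSO library. Each of the 10 genes had at least 13.4 RPM and at least 167 reads in every library, so none is listed through 1 group alone. Of all genes tested, 57.7% passed an adjusted p of 0.05 between DEX and DMSO libraries (limma), 29.6% higher and 28.1% lower in DEX. The third DEX library stood somewhat apart, with Spearman correlations of 0.985 and 0.987 to the other DEX libraries, against 0.991 between those. Ribosomal RNA took 2.17% to 2.96% of the reads in DEX and 1.27% to 1.98% in DMSO. Markers of the young flower were present, all 10 of 10, with summed levels of 1076 to 1172 RPM in DEX and 1105 to 1173 RPM in DMSO. Within these like sums 2 markers rose, PI (log2 fold change 0.63) and SEP3 (0.34), and 4 fell, ANT (-0.76), CAL (-0.62), STM (-0.39) and AP3 (-0.23), with a median of -0.20 over the 10. Markers of later anthers, 4 of 7 listed, summed to 32.4 to 36.0 RPM in DEX and 18.2 to 21.7 RPM in DMSO, all 4 higher in DEX. Of these, AMS and ACOS5 averaged 0.593 ± 0.194 and 0.943 ± 0.712 RPM in DMSO. Listed genes all reach 1 RPM in at least 3 libraries, which AMS and ACOS5 do only with their DEX libraries. A higher DEX level was thus nearly fixed for AMS and ACOS5 by the listing. The later genes MS1 and QRT3 and the early tapetum gene DYT1 were not analysed here. Markers of green tissue, 6 of 6 listed, summed to 9473 to 10194 RPM in DEX and 7963 to 8214 RPM in DMSO, with 4 of the 6 higher in DEX. The root marker PYK10 had 27.3 to 30.3 RPM in DEX and 17.5 to 21.5 RPM in DMSO. The part of ribosomal RNA and of these markers in the results below was not tested. In whole inflorescences, fewer cells of a type and less RNA per cell cannot be told apart.

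Of the 10 genes, 3 rose and 5 fell in DEX, and 2 did not pass the test. The 3 that rose were ASN1, GDH2 and GDH1, all with changes far above those of the others. The 5 that fell were ASN2, ASN3 and the 3 cytosolic glutamine synthetases, while GLN2 and GLU1, which work in plastids, did not pass. A share of 8 in 10 is to be read against the 57.7% of all genes that passed. The median log2 fold change of the 10 genes was -0.16, against 0.0035 over all genes. The DEX and DMSO values did not overlap for 9 of the 10 genes, with DEX higher in 3 and lower in 6. Over all genes this was so for 62.9%, with DEX higher for 32.1% and lower for 30.7%.

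**Figure D1:**
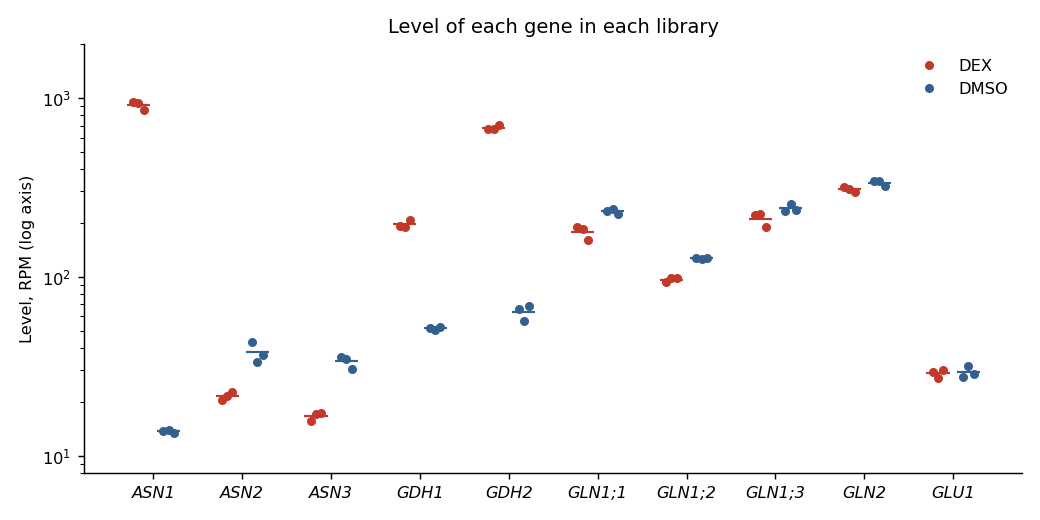
Level of each gene (RPM, log axis) in the 3 DEX (red) and 3 DMSO (blue) libraries, with points for libraries and bars for group means. ASN1 lies near 13.7 RPM in all DMSO libraries and above 860 RPM in all DEX libraries, and only GLU1 has groups that overlap.

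The asparagine synthetase genes moved in opposite directions. ASN1 (AT3G47340) had 950.1, 939.6 and 860.1 RPM in DEX libraries, against 13.7, 13.9 and 13.4 RPM in DMSO libraries. Every DEX library was thus far above every DMSO library, with the third DEX library the lowest of its group. The group means were 917 ± 49.2 RPM in DEX and 13.7 ± 0.209 RPM in DMSO (SD, n = 3 each), a 67.1-fold difference. On the scale of log2(RPM + 1), the fold change was 5.97 (95% interval 5.82 to 6.11, limma adjusted p = 1.75e-19), rank 1 of the 17675 genes on this scale. The rank depends on the measure, being 4 with a pseudocount of 0.1 and 6 by the ratio of mean RPM. In the DMSO libraries the SD of ASN1 was below the 1.03 RPM that counting error alone would give at this depth, and in DEX it was 5.85 times the counting error.

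ASN2 (AT5G65010), the light-induced synthetase, had 20.4, 21.4 and 22.6 RPM in DEX libraries, against 43.3, 33.3 and 36.6 RPM in DMSO libraries. All DEX values were below all DMSO values, and the first DMSO library was the highest. ASN2 fell by 0.78 on the log2 scale (95% interval -1.01 to -0.55, limma adjusted p = 1.16e-05). ASN3 (AT5G10240), the remaining synthetase, had 15.6, 17 and 17.2 RPM in DEX libraries, against 35.8, 34.8 and 30.3 RPM in DMSO libraries. These groups did not overlap either, and ASN3 had the lowest log2 fold change of the 10 genes, -0.97 (95% interval -1.21 to -0.74, limma adjusted p = 7.65e-07).

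The make-up of the synthetase transcripts differed between treatments. ASN1 took 96.4%, 96.1% and 95.6% of the reads of the 3 ASN genes in DEX libraries, against 14.7%, 16.9% and 16.7% in DMSO libraries. In DMSO, ASN2 held 44.3 ± 3.19% and ASN3 39.6 ± 2.5% of the reads, while in DEX they held 2.26 ± 0.230% and 1.74 ± 0.165% (SD, n = 3 each). Counted per kilobase of exon, the ASN1 share was 95.05 ± 0.482% in DEX and 13.3 ± 1.01% in DMSO. The summed RPM of the family was 11.2-fold higher in DEX, at 955 ± 47.6 RPM against 85.0 ± 6.70 RPM in DMSO. Differences between the responses of paralogues were taken as log2 ratios within each library. The ratio of ASN1 to ASN2 differed by 6.87 between DEX and DMSO on that log2 scale, and that of ASN1 to ASN3 by 7.08, with no overlap in either. The ratio of ASN2 to ASN3 was 0.37 ± 0.0321 in DEX and 0.16 ± 0.193 in DMSO. Its groups did not overlap, but the gap between them was small, with a lowest DEX value of 0.33 and a highest DMSO value of 0.27.

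For these shares, sums and ratios, 23 in all, the exact two-sided permutation test over 3 against 3 libraries cannot go below p = 0.10, and 18 of them reached that value, each without overlap between groups. None passes 0.05, the smallest Benjamini-Hochberg adjusted value being 0.128. They are therefore given as sizes with their spread. Measures of a family depend on each other, since the GDH1 share, the GDH2 share and the ratio of the pair restate each other. The 18 are thus not separate results, and over all genes 62.9% had groups without overlap.

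**Figure D2:**
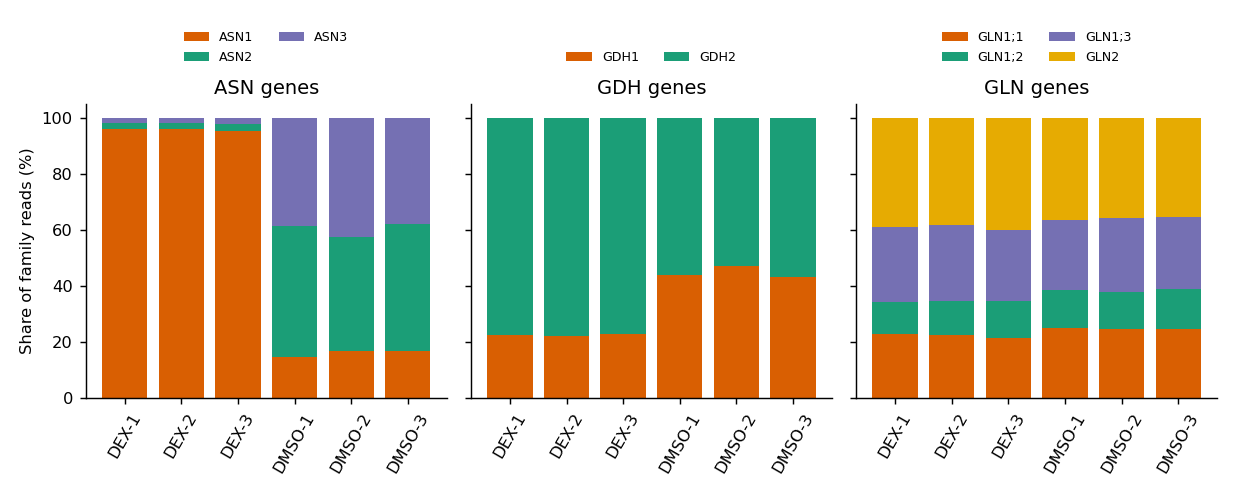
Share of family reads (%) held by each gene in each library, for the ASN, GDH and GLN genes among the 10, with DEX libraries to the left of DMSO libraries. ASN1 fills 95.6% to 96.4% of the ASN bar in DEX and 14.7% to 16.9% in DMSO, GDH2 fills 77.2% to 77.8% of the GDH bar in DEX and 52.9% to 56.6% in DMSO, and GLN2 fills 38.05% to 39.8% of the GLN bar in DEX and 35.3% to 36.6% in DMSO.

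Both glutamate dehydrogenase genes rose, GDH2 more than GDH1. GDH2 (AT5G07440), which encodes the alpha subunit, had 668, 668 and 705 RPM in DEX libraries, against 65.9, 56.9 and 68.5 RPM in DMSO libraries. The groups lay far apart, and its means of 680.2 ± 21.4 RPM in DEX and 63.7 ± 6.10 RPM in DMSO differed 10.7-fold (SD, n = 3 each). The log2 fold change was 3.40 (95% interval 3.25 to 3.55, limma adjusted p = 3.05e-16), rank 61 of all genes on the log2(RPM + 1) scale. GDH1 (AT5G18170), which encodes the beta subunit, had 192, 190.2 and 208 RPM in DEX libraries, against 51.4, 50.6 and 52.5 RPM in DMSO libraries. That is a 3.82-fold difference without overlap, with a log2 fold change of 1.91 (95% interval 1.77 to 2.06, limma adjusted p = 2.84e-13) and rank 452 on that scale.

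Alpha and beta subunits are known to assemble into mixed hexamers. GDH2 held 77.6 ± 0.298% of the reads of the pair in DEX and 55.2 ± 2.02% in DMSO. The log2 ratio of GDH1 to GDH2 was -1.80, -1.81 and -1.76 in DEX libraries, against -0.36, -0.17 and -0.38 in DMSO libraries, a difference of -1.49 with no overlap (exact permutation p = 0.10, the smallest possible). The sum of the pair was 7.61-fold higher in DEX, at 877 ± 30.9 RPM against 115 ± 6.99 RPM in DMSO. Of the 10 genes, 3 overlap an annotated neighbour. ASN1 shares 11 bases with AT3G47341 and GLU1 79 bases with BHLH101, neighbours not analysed here. GDH1 shares 166 bases of annotated span with the neighbouring gene AT5G18180, which had 2.67 ± 0.544 RPM in DEX and 2.86 ± 0.627 RPM in DMSO.

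The cytosolic glutamine synthetase genes GLN1;1 to GLN1;3 fell, each by a modest amount. GLN1;1 (AT5G37600), a high-affinity isoform, had 189, 184 and 160.1 RPM in DEX libraries, against 232, 238 and 225 RPM in DMSO libraries. The groups did not overlap, and the third DEX library was the lowest. GLN1;1 fell by 0.38 on the log2 scale (95% interval -0.53 to -0.24, limma adjusted p = 0.000157). GLN1;2 (AT1G66200) had 93.1, 98.1 and 98.2 RPM in DEX libraries, against 127, 126 and 128 RPM in DMSO libraries. Its fall of 0.39 on the log2 scale (95% interval -0.54 to -0.25, limma adjusted p = 7.77e-05) came with an SD in DMSO of 0.871 RPM, below the counting error of 3.14 RPM. In this gene the third DEX library was not low.

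GLN1;3 (AT3G17820), a low-affinity isoform, had 221, 223 and 189 RPM in DEX libraries, against 233, 254 and 236 RPM in DMSO libraries. The groups were separate by a narrow margin, and the fall of 0.19 on the log2 scale (95% interval -0.34 to -0.04) had a limma adjusted p = 0.0284. This call was lost without the second DMSO library (limma adjusted p = 0.143), without the third DMSO library (0.0620) and in limma without an intensity trend (0.141). Without the third DEX library GLN1;3 fell by 0.12 in log2 units, with a limma adjusted p = 0.0457.

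In plastids, GLN2 (AT5G35630), the synthetase that takes up ammonium released in photorespiration, had 319, 310.2 and 296 RPM in DEX libraries, against 341, 344 and 322 RPM in DMSO libraries. All DEX values were below all DMSO values, the closest being 319 RPM in DEX and 322 RPM in DMSO. The log2 difference of -0.12 (95% interval -0.25 to 0.004) did not pass the test (limma adjusted p = 0.0914). GLU1 (AT5G04140), the glutamate synthase that works beside GLN2, had 29.1, 27.2 and 30.1 RPM in DEX libraries, against 27.6, 31.6 and 28.7 RPM in DMSO libraries. These groups overlapped, with a log2 difference of -0.02 whose 95% interval of -0.23 to 0.19 leaves out changes as large as those of ASN2 or ASN3 (limma adjusted p = 0.867).

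**Figure D3:**
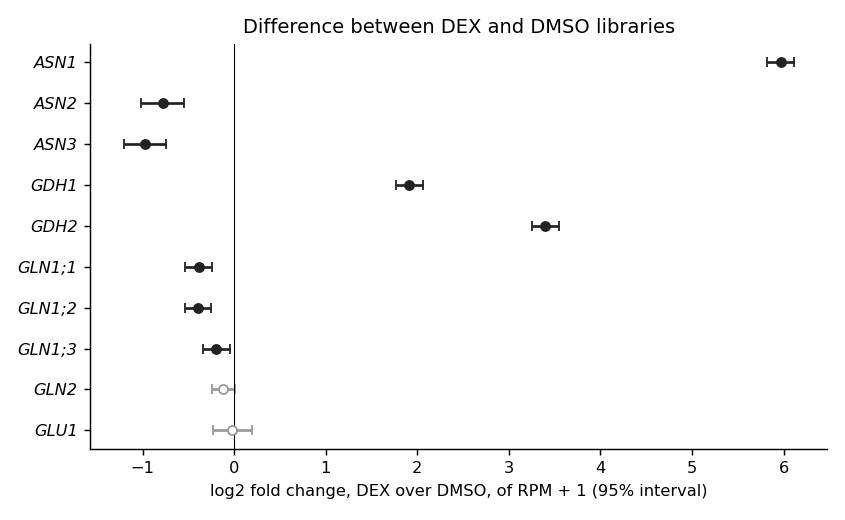
Log2 fold change of RPM + 1, DEX over DMSO, with 95% intervals from limma, for the 10 genes, filled where the adjusted p was at most 0.05 and open where it was not. ASN1, GDH2 and GDH1 lie at 5.97, 3.40 and 1.91, and the other 7 lie between -0.97 and -0.02.

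The 4 glutamine synthetase genes together had 793 ± 43.0 RPM in DEX and 935 ± 25.8 RPM in DMSO, a ratio of 0.848 (SD, n = 3 each). Of their reads, GLN2 held 38.9 ± 0.886% in DEX and 35.9 ± 0.626% in DMSO, without overlap. Among the 6 pairs of these genes, the log2 ratio differed by at most 0.28 between treatments, and the groups did not overlap in 3 pairs. The ratio of GLN1;1 to GLN2 differed by -0.26, that of GLN1;2 to GLN2 by -0.28, and that of GLN1;1 to GLN1;3 by -0.19. The ratio of GLN1;1 to GLN1;2 was 0.88 ± 0.159 in DEX and 0.87 ± 0.0498 in DMSO, within the spread between libraries. Near-identical stretches of paralogues can exchange reads, which was not measured here.

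Set side by side per length, in RPM per kilobase of exon, the order of the genes changed most through ASN1. In DEX libraries GDH2 was highest, at 337 ± 10.6, followed by ASN1 at 334 ± 17.9, and the ranges of these 2 overlapped. GLN2 came next at 147 ± 5.40, then GLN1;3 at 136 ± 12.1, GLN1;1 at 112 ± 9.66 and GDH1 at 106 ± 5.14. The ranges of GLN2 and GLN1;3 overlapped, as did those of GLN1;1 and GDH1. At the low end in DEX stood GLN1;2 at 57.2 ± 1.75, ASN2 at 9.64 ± 0.502, ASN3 at 7.70 ± 0.406 and GLU1 at 5.24 ± 0.272, each apart from the next.

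In DMSO libraries, on the same scale, the order was led by GLN2 at 160 ± 5.69, GLN1;3 at 155 ± 7.43 and GLN1;1 at 146 ± 4.08, neighbours whose ranges overlapped. GLN1;2 followed at 75.3 ± 0.517, GDH2 at 31.6 ± 3.02 and GDH1 at 27.8 ± 0.516, the last 2 overlapping. ASN2 at 16.9 ± 2.27 and ASN3 at 15.6 ± 1.34 overlapped too. GLU1 at 5.33 ± 0.377 and ASN1 at 4.97 ± 0.0762 ended the order with overlapping ranges. ASN1 was thus level with the most abundant of the 10 transcripts in DEX and level with the least abundant in DMSO.

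**Figure D4:**
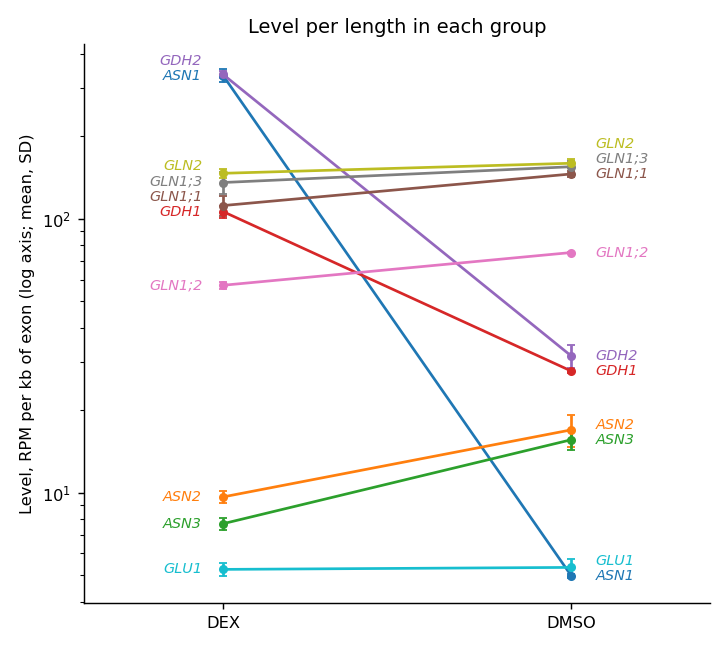
Mean level per exon length (RPM per kb, log axis) of each gene in DEX (left) and DMSO (right), with SD over 3 libraries. ASN1 lies at 334 in DEX and 4.97 in DMSO, GLN2 at 147 and 160, and GLU1 at 5.24 and 5.33.

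Genes whose profile over the 6 libraries was most like that of ASN1 were sought among 14195 genes with a mean of at least 5 RPM, by the root mean square difference of log2(RPM + 1) from the DMSO mean. The nearest was SEN1 (AT4G35770), a senescence-associated gene that darkness induces, at 0.23, followed by GLYI7 (0.54), RAP2.6 (0.56), BCAT-2 (0.61) and DIN11 (0.80). Their log2 fold changes fell in the same order, from 5.65 at SEN1 to 4.88 at DIN11. With only DEX and DMSO groups, this distance mostly reflects the size of the DEX change, so the match is one of effect size. For ASN3 the nearest were GSL05 (0.048), AT2G45290 (0.049), CSLC12 (0.051), AT5G09995 (0.053) and RGL2 (0.055). RAP2.6 and DIN11 averaged 0.667 ± 0.128 and 0.631 ± 0.360 RPM in DMSO, so they are listed only through their DEX libraries and their changes are understated on this scale. To a lesser degree this understatement also holds for GLYI7 (2.56 ± 0.783 RPM in DMSO) and BCAT-2 (3.17 ± 0.669 RPM in DMSO). By the ratio of mean RPM, DEX over DMSO, RAP2.6 was at 89.5 and DIN11 at 73.4, both above the 67.1 of ASN1.

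The wider nitrogen pathway was covered by 7 lists of 77 genes, of which 62 are in the table, 24 higher and 21 lower in DEX. That is 72.6% of the 62, against 57.7% of all genes, and their median log2 fold change was -0.15. The counts of each list below are to be read against the 29.6% of all genes that were higher and the 28.1% that were lower. Of 5 measured genes of glutamine and glutamate synthesis apart from the 10, 1 passed. This was GLT1 (AT5G53460), the NADH-dependent glutamate synthase, which fell to 155 ± 11.7 RPM in DEX, against 178 ± 7.13 RPM in DMSO (limma adjusted p = 0.0208). The call was lost without the first DEX library (adjusted p = 0.0690) and without the second (0.0920), without the first DMSO library (0.0828) and without the third (0.0821), and in limma without an intensity trend (0.108). The other 4, GLU2, the sensor protein GLB1, GLN1;4 and GLN1;5, did not pass, and the list had a median of -0.20. GLN1;4 had 1.31 ± 0.399 RPM in DEX and 2.14 ± 0.984 RPM in DMSO (limma adjusted p = 0.184). GLN1;5 had 1.14 ± 0.914 RPM in DEX and 2.29 ± 0.686 RPM in DMSO (limma adjusted p = 0.0530). Without the third DEX library 2 genes of this list fell.

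Of 10 measured genes of glutamate breakdown, GABA and transamination, 6 rose and 1 fell, with a median log2 fold change of 0.44. POP2 (AT3G22200), the GABA transaminase, rose to 157 ± 13 RPM in DEX, against 51.1 ± 5.21 RPM in DMSO. ALAAT2 (AT1G72330), an alanine aminotransferase, rose to 82.5 ± 5.83 RPM in DEX, against 36.7 ± 5.03 RPM in DMSO. The glutamate decarboxylase GAD4 (AT2G02010), which may exchange reads with its close copy GAD3, rose by 0.91 on the log2 scale and the peroxisomal glutamate:glyoxylate aminotransferase GGT1 (AT1G23310) by 0.82. GAD1 fell by 0.53 on the log2 scale. Without the third DEX library 2 genes of this list fell, and without the second or the third DMSO library none did.

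Of 9 measured genes of asparagine and aspartate turnover, 3 rose and 5 fell, with a median of -0.24. AGT1 (AT2G13360), a peroxisomal aminotransferase of photorespiration that can also take its amino group from asparagine, rose to 690 ± 42.8 RPM in DEX, against 134 ± 1.64 RPM in DMSO (log2 fold change 2.35). The cytosolic aspartate aminotransferase ASP2 and ASP3 (AT5G11520), of peroxisomes, were the other 2 that rose, ASP3 to 231 ± 35.2 RPM in DEX, against 123 ± 4.10 RPM in DMSO. The asparaginase ASPGB1 (AT3G16150), which breaks asparagine down, fell to 4.94 ± 0.833 RPM in DEX, against 7.91 ± 0.962 RPM in DMSO. CARB (AT1G29900), the large subunit of carbamoyl phosphate synthetase, a user of glutamine, fell by 0.65 on the log2 scale.

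In nitrate and ammonium uptake and reduction, 4 of 9 measured genes rose and 3 fell, with a median of 0.09. NRT1.7 (AT1G69870), which loads nitrate into phloem, rose to 164 ± 20.2 RPM in DEX, against 85.6 ± 5.47 RPM in DMSO, and the regulator NLP7 (AT4G24020) rose by 0.81 on the log2 scale. The ammonium transporter AMT1;2 (AT1G64780) fell to 5.15 ± 1.15 RPM in DEX, against 15.4 ± 3.86 RPM in DMSO. The nitrate transporter NRT1.1 (AT1G12110) fell by 0.74 on the log2 scale (limma adjusted p = 0.0243). Without the third DEX library its difference was -0.42 (adjusted p = 0.128), and the call was also lost without the second DMSO library (adjusted p = 0.122), without the third (0.0676) and in limma without an intensity trend (0.0613).

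Of 14 measured genes of photorespiration, whose ammonium GLN2 and GLU1 recover, 5 rose and 7 fell, with a median of -0.29. These 14 leave out the peroxisomal aminotransferases AGT1 (log2 fold change 2.35) and GGT1 (0.82). Both rose and were counted in the lists above, so the count and median do not cover the whole pathway. HPR1 (AT1G68010), the peroxisomal hydroxypyruvate reductase, rose to 226 ± 11.5 RPM in DEX, against 69.0 ± 5.72 RPM in DMSO, and the catalase CAT2 (AT4G35090) rose to 290.2 ± 18.5 RPM in DEX, against 106 ± 4.11 RPM in DMSO. GLDP1 (AT4G33010), of the mitochondrial glycine decarboxylase that releases the ammonium, fell to 108 ± 17.4 RPM in DEX, against 204 ± 12.9 RPM in DMSO. The plastid dicarboxylate carrier DIT2.1 (AT5G64290), which exports glutamate, fell to 75.7 ± 9.31 RPM in DEX, against 129 ± 3.11 RPM in DMSO.

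Of 9 measured genes of amino acid transport, 2 rose and 4 fell, with a median of -0.32. LHT1 (AT5G40780), an uptake carrier, rose to 40.8 ± 1.26 RPM in DEX, against 16.0 ± 1.2 RPM in DMSO, and the permease AAP7 (AT5G23810) rose by 0.87 on the log2 scale. AAP2 (AT5G09220) fell to 3.27 ± 0.867 RPM in DEX, against 12.3 ± 1.33 RPM in DMSO, and AAP6 (AT5G49630) fell by 0.91 on the log2 scale. Of the bZIP factors that bind the ASN1 promoter in Arabidopsis, those of group S1 were not analysed here. All 4 of their group C partners rose, bZIP9 (AT5G24800) to 83.8 ± 8.89 RPM in DEX, against 18.3 ± 2.69 RPM in DMSO, and bZIP63 (AT5G28770) to 57.4 ± 3.50 RPM in DEX, against 18.7 ± 1.05 RPM in DMSO. bZIP25 (AT3G54620) rose by 1.06 and bZIP10 (AT4G02640) by 0.41 on the log2 scale (limma adjusted p = 0.0141 for bZIP10). The adjusted p of bZIP10 was 0.0787 without the first and 0.0577 without the second DEX library, and 0.0655 without the third DMSO library. The list of group C factors and SnRK1 kinases had 4 of 6 measured genes higher and a median of 0.73. The kinase genes KIN10 and KIN11 did not pass, at -0.14 and -0.17.

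**Figure D5:**
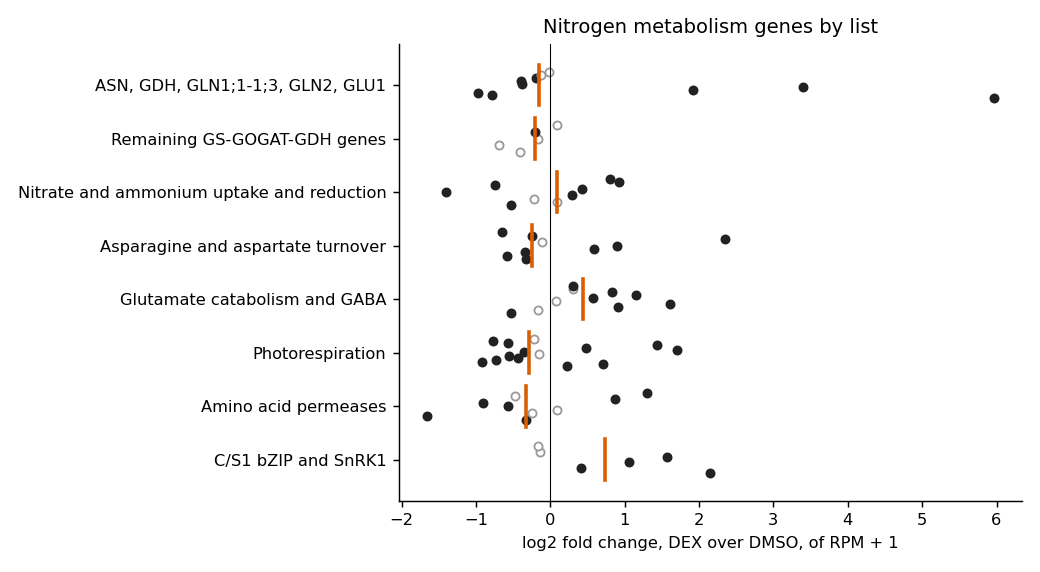
Log2 fold change of RPM + 1, DEX over DMSO, of each measured gene in the 10 genes described first and in 7 lists of nitrogen metabolism, filled where the limma adjusted p was at most 0.05, with the median of each list as an orange bar. ASN1 (5.97) and GDH2 (3.40) lie outside the range of the other lists, which reach 2.35 at AGT1.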

How the data were processed

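RNA-seq of 6 libraries was analysed, 3 DEX and 3 DMSO, grouped by their titles. The authors deposited RPM per gene, made with TopHat and HTSeq per the submitters' processing notes. Their versions, the build and the strand setting are not stated there, so no coordinates or sequences are printed. RPM were scaled to 1000000 reads over the listed genes, and 100% of the values came out as whole reads within 0.01 reads. The genes in the table all reach 1 RPM in at least 3 libraries.

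Log2(RPM + 1), which understates changes of weak genes, was tested with limma 3.58.1 (R 4.3.3, intensity trend, two-sided, no block) over 17675 genes, with Benjamini-Hochberg adjustment at 0.05. edgeR 4.0.16 and DESeq2 1.42.0 were run on the recovered reads. Exon lengths and the annotated overlap of neighbours came from RefSeq TAIR10.1, which matched 17646 of the identifiers. Counting errors cover counting only. From each list, up to 4 genes past the threshold with the largest changes were named. Further genes (GLU2, GLB1, GLN1;4, GLN1;5, ASP2, GAD1, KIN10, KIN11) were named after their values were seen. The genes and lists were chosen with earlier results of these data known. The labels do not say whether the libraries of a group came from separate plants, so the p-values rest on a spread that may be technical. No library repeats another, with chi-square values of 2.80 to 12.0 per degree of freedom between those of a group. The highest, 10.5 and 12.0, were those of the third DEX library against the first and second, against 2.80 between those.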

Additional observations from a re-analysis of the deposited data

How the results depend on the processing

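The 10 genes were refitted under 17 alternatives: other pseudocounts, a minimum of 5 RPM or none, TMM and median-of-ratios scaling, limma without trend or with robust moderation, edgeR, DESeq2, the replicate number as a block, and each library left out. ASN1, ASN2, ASN3, GDH1, GDH2, GLN1;1 and GLN1;2 passed with the same direction in all 17, and GLN1;3 in 14. Of the 17, the fit without a minimum could only repeat the main fit, whose minimum of 1 RPM every listed gene already meets. GLU1 ranged from -0.0629 to 0.0318 on the log2 scale, positive without the second DEX library (0.0180) or the second DMSO library (0.0318). The difference in the ratio of GLN1;1 to GLN1;2 ranged from -0.0598 to 0.0972 with 1 library left out. Same-numbered libraries did not deviate together (correlations -0.07, 0.10 and 0.04), and with the replicate number as a block 5264 genes rose and 4991 fell, with 3 and 5 of the 10 genes. The cause of these changes was not tested. Depth limits weak genes most, since 3 reads equal 0.207 to 0.280 RPM.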
